A study of Mus musculus with 2 samples.

Results

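The 9 genes described here, Socs1, Socs2, Socs3, Cish, Pim1, Pim2, Myc, Gadd45g and Osm, are transcribed in lymphocytes that receive cytokine signals, and several of their proteins act back on that signal. They were matched by symbol among the 31053 genes of the deposited matrices, and all 9 were found. They were chosen with results from these same libraries known, so the differences between libraries are given as descriptions. Natural killer (NK) cells had been sorted from mouse brain by fluorescence-activated cell sorting and read with the 10x Genomics chemistry that captures the 5′ ends of transcripts. The groups are 1 library from 3XTg-AD mice and 1 library from wildtype C57BL/6 mice, all untreated females at 8 months of age. The 3XTg-AD line is a transgenic model of Alzheimer's disease that carries, among its alleles, human APP and MAPT transgenes driven by a neuronal promoter, as general background. The labels state neither its genetic background nor how many mice went into each library. Each group is 1 unreplicated library, so nothing was tested, and animal, preparation and genotype cannot be told apart.

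Cytokines such as IL-15 and IL-2 bind receptors whose JAK kinases phosphorylate STAT transcription factors, and these carry the signal to the nucleus. STAT targets include genes of the SOCS family, to which Cish belongs, whose proteins bind the receptors or the JAKs and damp the signal, closing a negative feedback loop. PIM kinases and MYC act in the other direction, on survival and growth, and in NK cells cytokine priming is also known to raise Gzmb, which encodes the granule protease granzyme B.

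Short stretches of promoter are shown because they hold the letters through which STAT, interferon and E-box factors are known to act on such genes. RefSeq windows on GRCm38.p6, each 300 bases long from 250 bases before to 50 bases after an annotated start, existed for 6 of the 9 genes in 7 windows, and none is shown for Socs2, Myc and Osm. Both strands were searched for TTCNNNGAA, the STAT-type palindrome, for CACGTG, the E-box bound by MYC and other factors, and for an interferon-response type repeat, GAAA repeated with any 2 bases between, that was added after the sequences were looked at. Of 32851 promoter windows, 8.30% held TTCNNNGAA, 7.15% held CACGTG and 3.44% held the GAAA repeat. Each line below runs 5′ to 3′ on the gene's strand, and the capitals mark the matched letters.
Cish, chr9:107296654-107296683, plus strand: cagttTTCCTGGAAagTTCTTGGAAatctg
Socs3, chr11:117969502-117969530, minus strand: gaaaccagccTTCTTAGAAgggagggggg
Socs1, chr16:10785597-10785626, minus strand: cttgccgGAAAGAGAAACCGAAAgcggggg
Gadd45g, chr13:51846523-51846548, plus strand: cacccctcccCACGTGgccttctggc
Pim1, chr17:29493017-29493042, plus strand: aaacaggaatCACGTGgtctgaaacc
The Cish stretch holds 2 STAT-type palindromes and the Socs1 stretch 2 overlapping interferon-type repeats that share GAAA. The Pim1 stretch belongs to the second of its 2 annotated starts, and the Pim2 window held none of these letters. A match describes the sequence only and is not evidence of binding in these cells.

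The deposited libraries held 1695 3XTg-AD and 1709 wildtype barcodes with 5468455 and 5559995 unique molecular identifiers (UMIs, 1 per captured transcript), and 1 barcode sequence was common to both. Of these, 1663 3XTg-AD and 1649 wildtype barcodes passed the filters. NK barcodes, defined by at least 2 summed UMIs of Ncr1, Klrb1c and Klre1, numbered 1508 in the 3XTg-AD library and 1470 in the wildtype library, with median depths of 2791 and 2881.5 UMIs. Ncr1, the gene of the defining receptor NKp46, had a UMI in 98.3% of 3XTg-AD and 96.1% of wildtype NK barcodes. ILC1-like barcodes, with at least 3 summed UMIs of Itga1, Cxcr6, Inpp4b, Gzmc and Tnfsf10, numbered 72 and 93, with median depths of 5555 and 5312 UMIs. A further 27 3XTg-AD and 36 wildtype barcodes scored 2 on that list, and 37 and 33 of those inside scored 3 or 4, so the class is a range of a score. To compare shares of barcodes at equal depth, each barcode was thinned at random to 1400 UMIs. That left 1431 3XTg-AD and 1359 wildtype NK barcodes, with 77 and 111 left out as shallower, and 72 and 90 ILC1-like barcodes, with 0 and 3 left out.

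In NK barcodes 8 of the 9 genes had a lower level in the 3XTg-AD library than in the wildtype library by more than counting error, and Socs3 was the exception. The levels are UMIs per 1000000 (CPM), summed over NK barcodes, with exact 95% intervals of the ratio; these and all other intervals reflect counting error, and leave out differences between cells, mice and preparations. At a threshold of 1.5-fold and at least 100 UMIs over both libraries, 7 members were lower and 0 were higher, where 2.37% of 7203 measured genes were lower and 3.55% were higher. The median log2 ratio was -0.95 over the members and 0.05 over all measured genes. The share of all measured genes whose interval lay below 1 is not given here. The members were chosen with these ratios known, so nothing is read from either count of members. Cish stayed past the threshold under 10 of 21 alternatives and Osm under 16. Those counts include settings that changed only the minimum of UMIs and so repeated the ratio. With thinned counts the Cish ratio was 0.684 with an interval of 0.464 to 1.003. Without the barcodes rich in interferon transcripts, or without the 5% richest in stress and chaperone transcripts, neither Cish nor Osm passed and the count was 5.

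Socs1 (chr16:10782240-10785536 in mm10, minus strand) encodes an inhibitor that binds JAK kinases and restrains interferon and IL-2 family signals. It had 310 UMIs in 3XTg-AD NK barcodes, 67.1 CPM, against 679 UMIs and 147.7 CPM in wildtype NK barcodes, a ratio of 0.454 (0.396 to 0.520). Cish (chr9:107296026-107302784, plus strand), whose product CIS is known in mouse NK cells as a brake on IL-15 signalling, stood at 24.2 CPM against 37.2 CPM, a ratio of 0.652 (0.509 to 0.832). Socs2 (chr10:95385362-95417180, minus strand), best known for damping growth hormone signals, stood at 7.57 CPM in the 3XTg-AD library against 16.5 CPM in the wildtype library, a ratio of 0.458 (0.298 to 0.692). Socs3 (chr11:117966079-117970047, minus strand), the inhibitor of gp130 receptors, had 59 UMIs against 65 UMIs, and its ratio of 0.903 had an interval of 0.624 to 1.305. Within the SOCS family the 3XTg-AD NK barcodes were therefore lower for Socs1, Socs2 and Cish, and no difference was detectable for Socs3 at this depth.

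The growth and survival genes were uneven. Pim2 (chrX:7878262-7883432, plus strand) encodes a serine/threonine kinase whose activity follows its amount, and it had the lowest ratio of the 9 genes, 31.6 CPM in 3XTg-AD against 76.1 CPM in wildtype NK barcodes, or 0.415 (0.340 to 0.505). Its relative Pim1 (chr17:29490753-29496112, plus strand) had 274 CPM against 308 CPM, a ratio of 0.889 (0.824 to 0.960). Both PIM kinases were thus lower in the 3XTg-AD library, Pim2 by more than 1.5-fold and Pim1 by less. Myc (chr15:61985391-61990374, plus strand), the growth-promoting transcription factor, stood at 29.9 CPM in 3XTg-AD against 57.9 CPM in wildtype NK barcodes, a ratio of 0.516 (0.417 to 0.636).

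Gadd45g (chr13:51846678-51848468, plus strand), whose protein activates a kinase upstream of p38 and in T cells supports interferon gamma production, had 56.3 CPM in 3XTg-AD against 132.7 CPM in wildtype NK barcodes. The ratio was 0.424 (0.365 to 0.491). Osm (chr11:4236420-4241026, plus strand), a secreted IL-6 family cytokine and the only ligand of the set, had 19.7 CPM against 30.7 CPM, a ratio of 0.642 (0.488 to 0.842). Among the 7 genes that passed 1.5-fold, Osm and Cish lay closest to it, and Pim1 and Socs3 did not reach it.

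**Figure D1:**
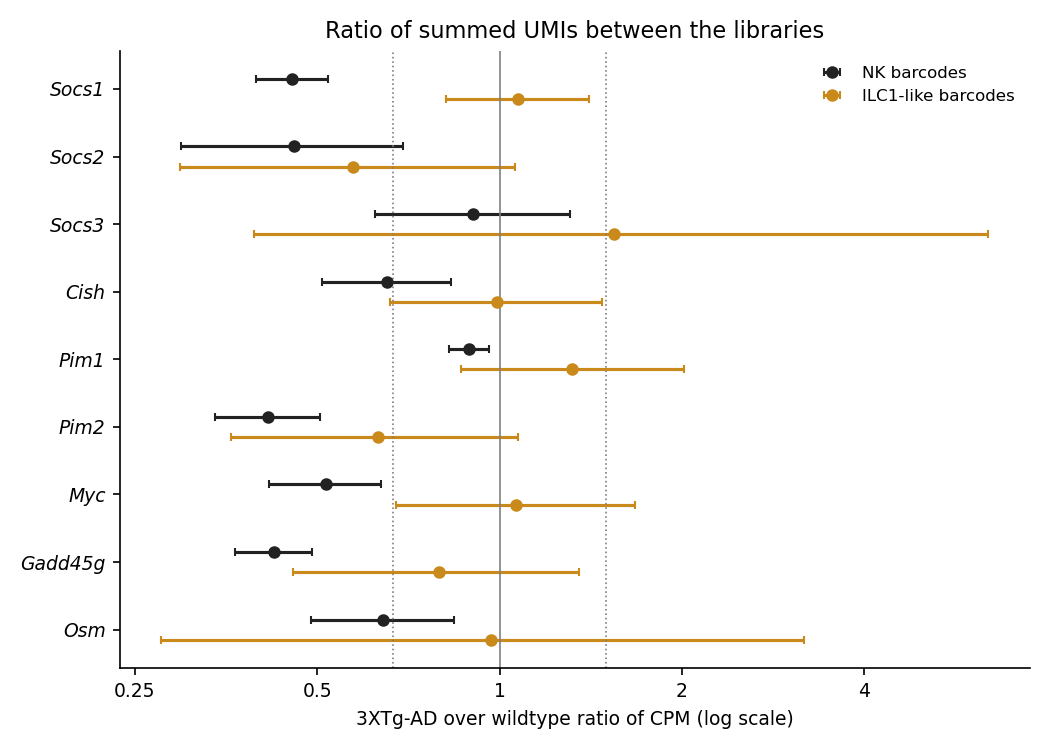
Ratio of 3XTg-AD over wildtype levels (CPM, log axis) for each gene in NK barcodes and in ILC1-like barcodes, with exact 95% counting intervals and dotted lines at 1.5-fold either way. In NK barcodes 8 of 9 intervals lie below 1, while in ILC1-like barcodes the points scatter around 1 with wider intervals.

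At equal depth the share of barcodes with a UMI was lower in the 3XTg-AD library for all 9 genes in the random draw used. How many of all genes had a lower share is not given here, so nothing is read from that count. Socs1 was found in 10.1% (95% interval 8.62 to 11.8) of thinned 3XTg-AD NK barcodes and in 16.2% (14.3 to 18.3) of wildtype ones. The shares were 6.22% and 10.2% for Gadd45g, 3.84% and 8.98% for Pim2, and 3.07% and 6.77% for Myc. Pim1 was the most often detected of the set, in 32.2% of 3XTg-AD and 34.1% of wildtype NK barcodes. Cish was seen in 3.28% and 4.78%, Osm in 2.66% and 4.05%, Socs3 in 2.03% and 2.80%, and Socs2 in 0.978% and 2.13%. The draw moved these differences. Averaged over all possible draws, Socs1 was expected in 8.58% of 3XTg-AD and 16.4% of wildtype NK barcodes and Pim1 in 31.3% and 34.0%, while a second draw put the Pim1 difference at -5.51 percentage points, against -1.93 in the first. Without thinning, Socs1 had a UMI in 16% of 3XTg-AD and 27.8% of wildtype NK barcodes, and Pim1 in 50.3% and 52.9%. Barcodes rich in a member were also fewer in the 3XTg-AD library, with 11 against 69 holding 3 or more Socs1 UMIs and 14 against 58 holding 3 or more Gadd45g UMIs. The highest single NK barcode had 7 Gadd45g UMIs in the 3XTg-AD library and 27 in the wildtype library, whereas for Myc it had 11 and 7.

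**Figure D2:**
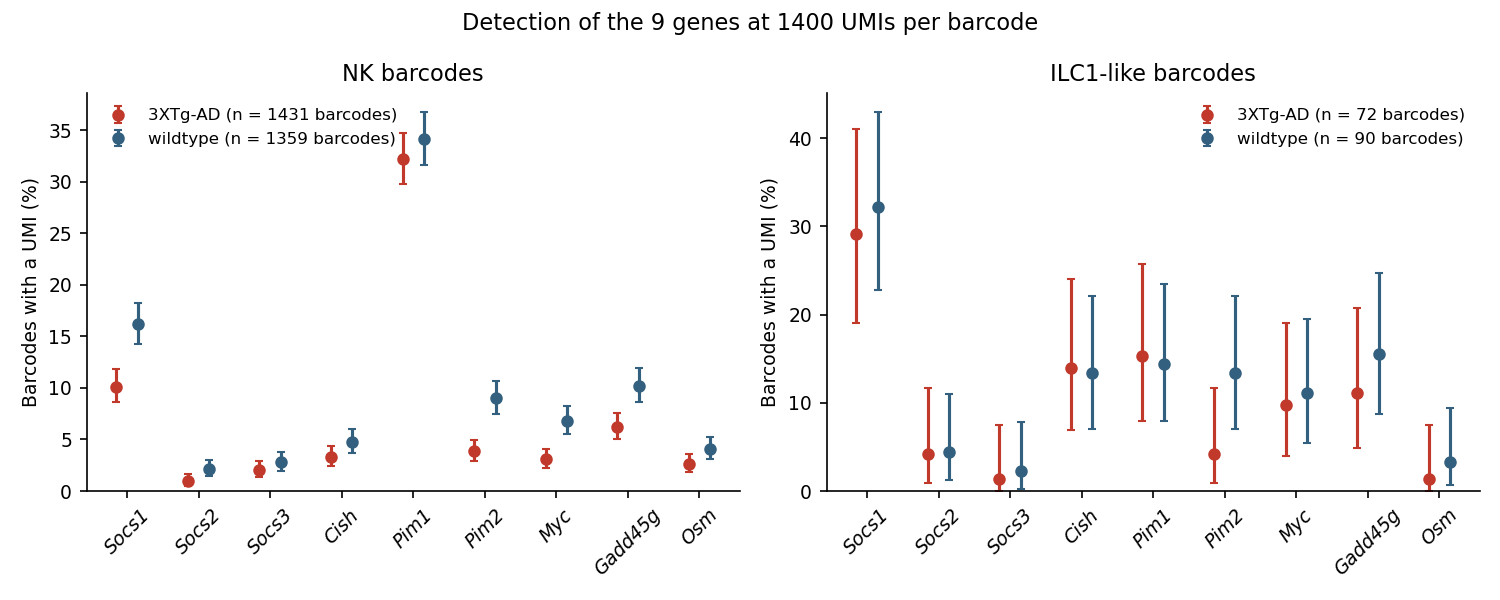
Percent of barcodes with at least 1 UMI of each gene after thinning to 1400 UMIs, in NK and in ILC1-like barcodes, with exact 95% binomial intervals (Clopper-Pearson). Every NK share is lower in the 3XTg-AD library, for example 10.1% against 16.2% for Socs1 and 32.2% against 34.1% for Pim1.

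Microglia barcodes, 31 in the 3XTg-AD and 8 in the wildtype library at median depths of 3505 and 3206 UMIs, were read for the same genes as a class that should lack NK transcripts. Socs1 had a UMI in 3.23% and 0% of them, below its unthinned NK shares of 16% and 27.8%, where 0 of 8 barcodes allows a share of up to 37.5%. Pim2 had the same 3.23% and 0%, against 7.82% and 16.5% of NK barcodes, and Pim1 had 29.0% and 12.5%, against 50.3% and 52.9%. Cish was in 0% of 3XTg-AD and 12.5% of wildtype microglia barcodes, which is 1 barcode. These values are no clean measure of free RNA. The NK granule gene Gzma had 847 UMIs in 13 of the 31 3XTg-AD microglia barcodes and none in the other 18. Myc, Gadd45g, Osm and Socs3 stood in those 31 barcodes at 1.69, 1.95, 2.14 and 9.25 times their NK level. These folds rest on only 6, 13, 5 and 14 UMIs, and those of Socs3 lay in 3 barcodes. Single UMIs of the members are therefore not read as expression in a given NK cell.

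NK cells mature from Cd27-positive to Klrg1-positive stages, and the barcodes were split by detection of these genes, where negative means only that no UMI was seen. The Cd27-negative Klrg1-positive class held 425 3XTg-AD and 458 wildtype barcodes, the class negative for both 943 and 830, and the Cd27-positive Klrg1-negative class 58 and 65. The remaining class, positive for both, had 5 and 6 barcodes and was not compared. Socs1 was detected in 9.41% of 3XTg-AD and 14.0% of wildtype Klrg1-positive barcodes and in 10.3% and 17.6% of barcodes negative for both. The ratios of mean thinned UMIs were 0.559 (0.374 to 0.826) and 0.485 (0.380 to 0.617), so Socs1 was lower in the 3XTg-AD library in both of these classes. In Cd27-positive Klrg1-negative barcodes it was found in 13.8% and 15.4%, a ratio of 0.862 (0.338 to 2.13), and no difference was detectable there. Pim2 was also lower in the 3XTg-AD library in both large classes, at 4% against 8.73% and at 4.03% against 9.04%. In the Cd27-positive Klrg1-negative class it was in 0 of 58 3XTg-AD barcodes, which allows up to 5.17%, against 9.23% of 65 wildtype ones. On 0 and 8 UMIs, the interval of its ratio there was 0 to 0.657, below 1, unlike that of Socs1.

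Myc was detected in 2.35% of 3XTg-AD and 5.68% of wildtype Klrg1-positive barcodes, and in 3.18% and 7.59% of barcodes negative for both. In Cd27-positive barcodes, where counts were small, it was in 6.90% and 4.62%. Gadd45g was detected in 7.53% and 11.8% of Klrg1-positive barcodes, in 5.83% and 9.88% of barcodes negative for both and in 3.45% and 4.62% of Cd27-positive barcodes. Pim1 had shares between 30.8% and 34.8% in all 3 classes of both libraries, and its ratio in barcodes negative for both was 0.842 (0.732 to 0.968). Socs2 was found mostly in barcodes without a Klrg1 UMI. In the 3XTg-AD library 14 of its thinned UMIs lay in barcodes negative for both and 0 in Klrg1-positive ones, where up to 0.706% is allowed, and in the wildtype library 33 lay in barcodes negative for both and 3 in Klrg1-positive ones. That wildtype ratio, negative for both over Klrg1-positive, was 6.07 (1.90 to 30.9) per barcode.

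**Figure D3:**
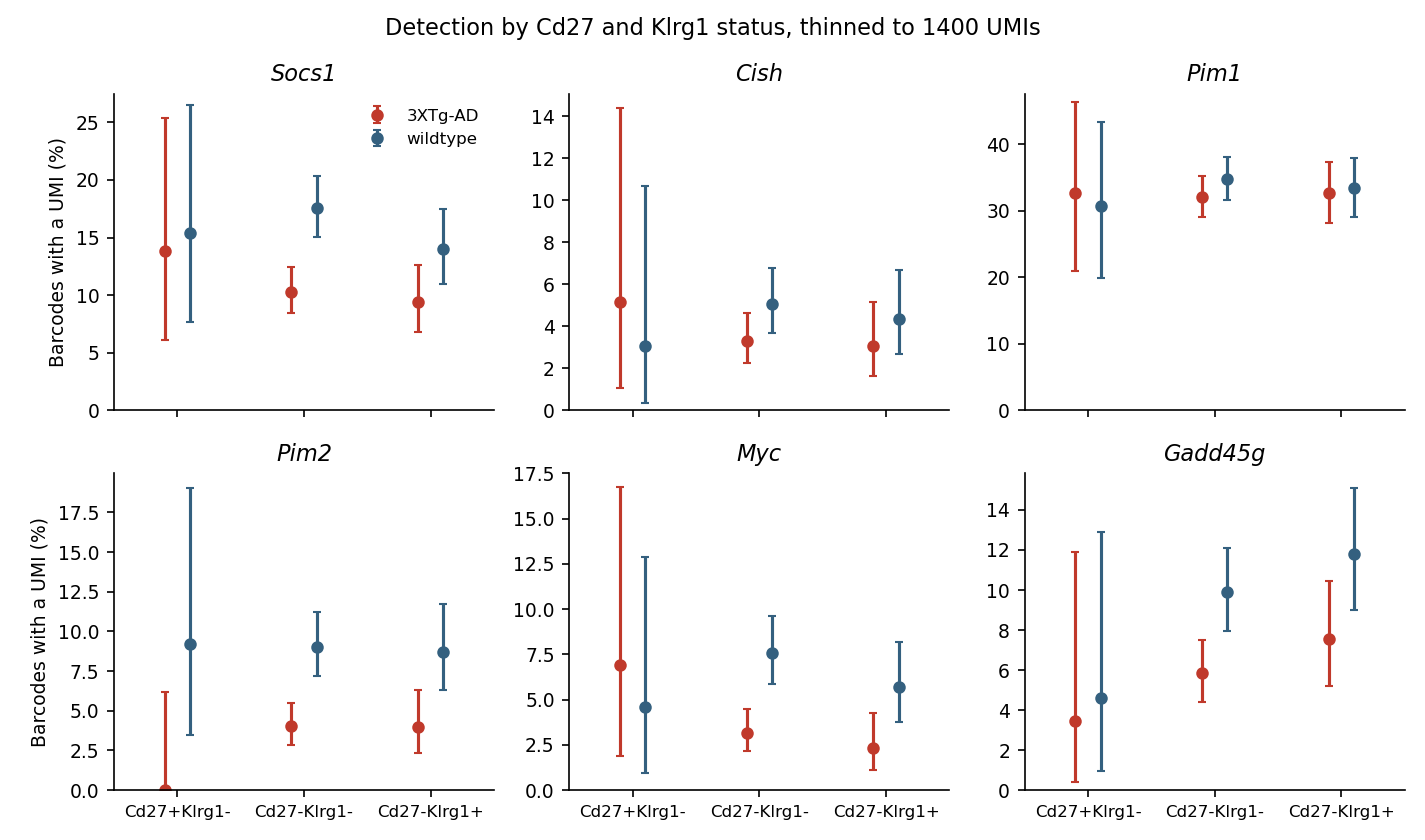
Percent of thinned NK barcodes with at least 1 UMI of 6 of the genes, by detection of Cd27 and Klrg1, in the 3XTg-AD and wildtype libraries, with exact 95% binomial intervals. The library difference for Socs1, Pim2, Myc and Gadd45g is visible in both large classes, and the intervals of the Cd27-positive class overlap.

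In ILC1-like barcodes the library difference seen in NK barcodes was not found for Socs1 or Cish. These innate lymphocytes resemble NK cells and stay in tissue. Socs1 had 103 UMIs and 250.7 CPM in 3XTg-AD against 124 UMIs and 234.0 CPM in wildtype ILC1-like barcodes, a ratio of 1.07 (0.817 to 1.40). Cish had 46 and 60 UMIs, a ratio of 0.989 (0.659 to 1.48). These were the 2 members with at least 100 UMIs, and 0 of them passed 1.5-fold, where 2.6% of 1232 measured genes were higher and 3.25% lower. Below that minimum, Myc had 38 and 46 UMIs, a ratio of 1.07 (0.675 to 1.67), Pim1 1.32 (0.863 to 2.01) and Gadd45g 0.794 (0.457 to 1.35). Pim2, with 22 and 45 UMIs, had a ratio of 0.631 (0.361 to 1.07), and Socs2, with 16 and 36, one of 0.573 (0.297 to 1.06), both intervals reaching past 1. Socs3 and Osm had at most 8 UMIs in either library. The ILC1-like classes of the libraries were not alike in other genes. Gzmc, a gene of their gate, stood at 316.4 CPM in 3XTg-AD against 1469.8 CPM in wildtype barcodes. Itga1, Cxcr6, Inpp4b and Tnfsf10 stood closer. Thinned Gzmb averaged 1.47 UMIs against 4.54, a ratio of 0.324 (0.259 to 0.402). The difference between the NK and the ILC1-like ratios was itself not tested.

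Within each library the ILC1-like barcodes carried the set in other proportions than the NK barcodes at equal depth. Socs1 was found in 29.2% of 3XTg-AD and 32.2% of wildtype ILC1-like barcodes, and its mean thinned level over that of NK barcodes was 3.63 (2.35 to 5.41) in the 3XTg-AD library and 2.04 (1.42 to 2.86) in the wildtype library. Cish was found in 13.9% and 13.3%, at 4.87 times (2.36 to 9.29) and 3.11 times (1.61 to 5.58) the NK level. Pim1 went the other way, in 15.3% and 14.4% of ILC1-like barcodes, at 0.439 (0.233 to 0.757) and 0.321 (0.174 to 0.542) of the NK level. Myc was at 3.98 times (1.80 to 7.93) the NK level in the 3XTg-AD library, and in the wildtype library its 1.47 times had an interval of 0.741 to 2.67. Socs2 was at 5.68 times (1.36 to 18.1) the NK level on 4 ILC1-like UMIs in the 3XTg-AD library, and at 1.68 times (0.434 to 4.68) in the wildtype library. Socs1, Cish and Pim1 were the members whose interval lay on 1 side of 1 in both libraries, Socs1 and Cish higher and Pim1 lower in ILC1-like than in NK barcodes.

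For Gadd45g and Cish much of the wildtype excess lay in barcodes rich in Gzmb. For Socs2, Pim2 and Myc most of the difference in log2 ratio remained without them, and Socs1 lay between. Gzmb (chr14:56258838-56262260, minus strand) had a UMI in 66.2% of 3XTg-AD and 67.4% of wildtype thinned NK barcodes, but averaged 2.10 and 4.10 UMIs per barcode. At least 10 Gzmb UMIs were seen in 30 3XTg-AD barcodes (2.10%) and 143 wildtype barcodes (10.5%), with highest values of 35 and 113. The limit of 10 was set after seeing the data, and 46 3XTg-AD and 77 wildtype barcodes had 8 to 12 UMIs. Before thinning, the barcodes at or above the limit had median depths of 3292.5 and 3541 UMIs, against 2826 and 2944.5 for the others.

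Across 0, 1 to 3, 4 to 9 and at least 10 Gzmb UMIs, Socs1 was detected in 7.87%, 10.9%, 11.7% and 16.7% of 3XTg-AD NK barcodes. In the wildtype library the same steps gave 8.13%, 11.8%, 21.2% and 49.7%, so for Socs1 the libraries were close at up to 3 Gzmb UMIs and apart above that. Gadd45g followed the same course, at 4.76%, 7.60%, 5.49% and 6.67% in the 3XTg-AD library against 4.97%, 7.01%, 13.0% and 34.3% in the wildtype library. Cish was at 3.52%, 2.48%, 4.76% and 3.33% against 2.48%, 2.58%, 5.19% and 19.6%. Myc was at 4.35%, 2.02%, 2.56% and 10.0% against 3.84%, 2.95%, 12.6% and 21.0%. Pim2 differed already without Gzmb, at 4.14%, 4.50%, 2.20% and 0% against 7.45%, 6.64%, 9.09% and 22.4%. The highest step held only 30 3XTg-AD barcodes, where 0 allows up to 10%, and it averaged 13.7 Gzmb UMIs in the 3XTg-AD library and 23.0 in the wildtype library, so it is not matched for Gzmb.

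**Figure D4:**
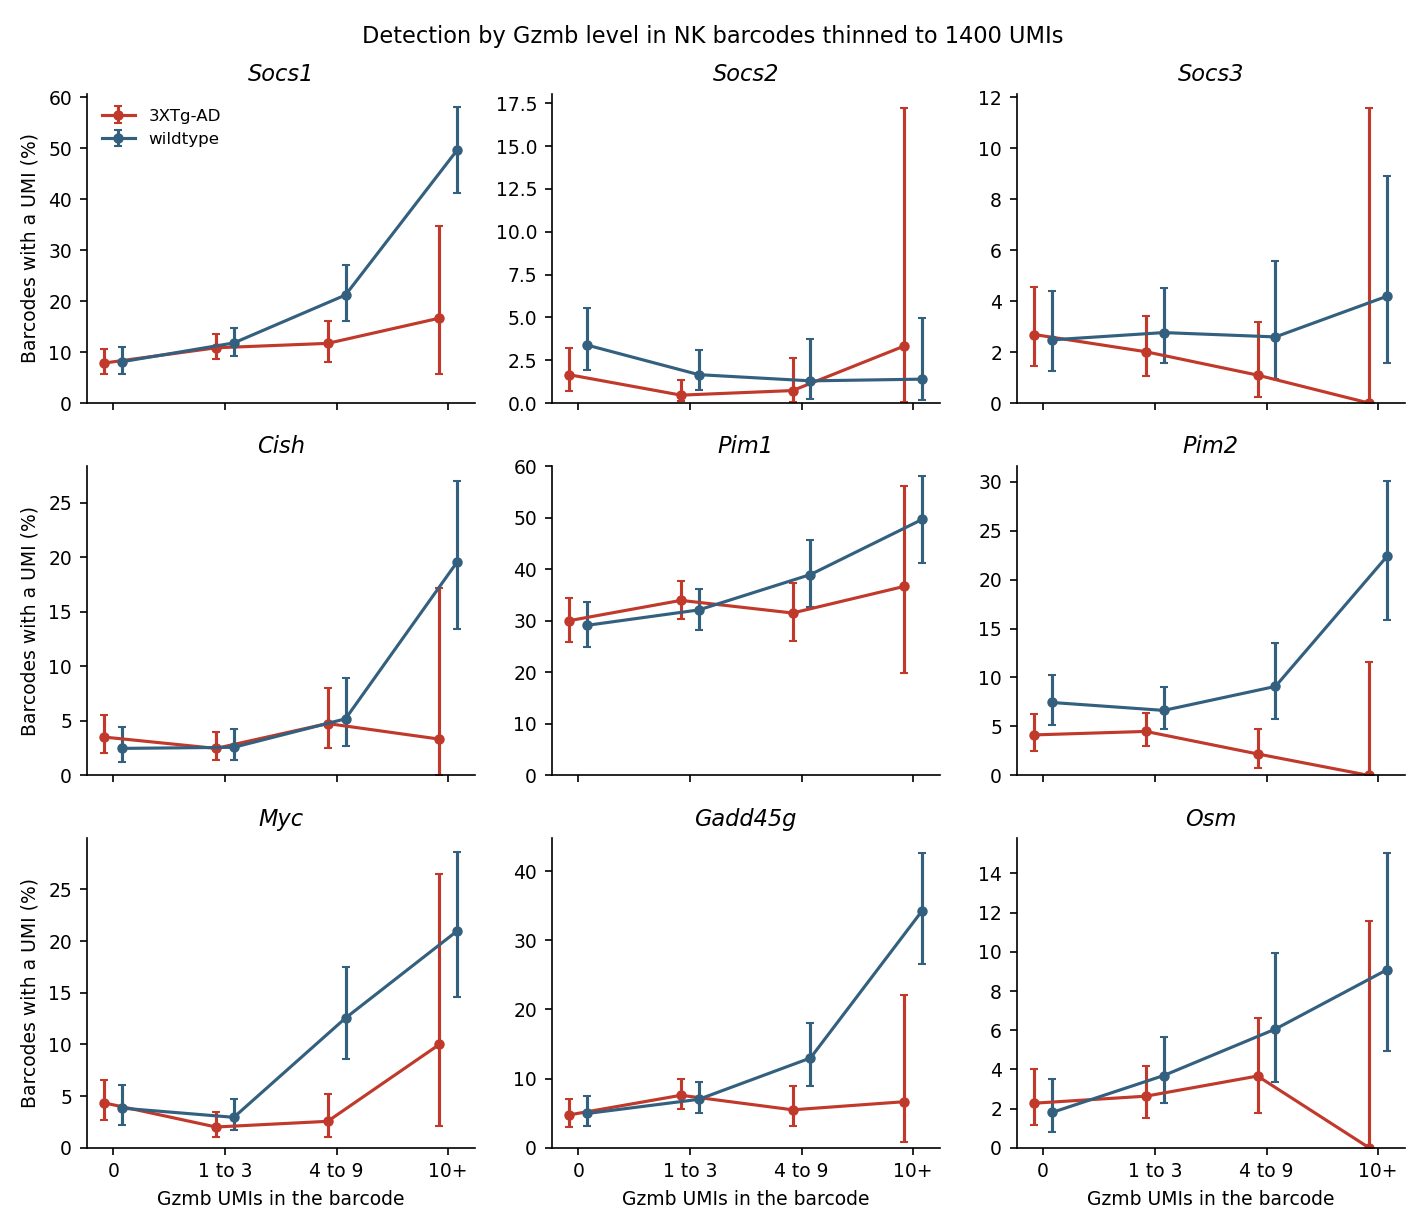
Percent of thinned NK barcodes with at least 1 UMI of each gene against the barcode's Gzmb UMIs, for the 3XTg-AD and wildtype libraries, with exact 95% binomial intervals. For Socs1 the libraries are close at 0 Gzmb UMIs (7.87% against 8.13%) and far apart at 10 or more (16.7% against 49.7%).

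The 143 wildtype barcodes with at least 10 Gzmb UMIs held 49.3% of the thinned Gadd45g UMIs of that library's NK barcodes, 42.6% of those of Cish, 36.1% of Socs1, 35.0% of Myc, 26.7% of Pim2 and 17.5% of Pim1. Below 10 Gzmb UMIs the libraries had like levels of Gzmb itself, a ratio of 0.985 (0.931 to 1.04), and 3 members were still past 1.5-fold lower in the 3XTg-AD library, Socs2 at 0.332 (0.161 to 0.645, on 13 and 34 thinned UMIs), Pim2 at 0.458 (0.327 to 0.635) and Myc at 0.499 (0.339 to 0.726). Socs1 there had a ratio of 0.726 (0.583 to 0.905), Gadd45g 0.812 (0.614 to 1.07) and Cish 1.07 (0.686 to 1.67), and for Cish no difference was detectable. With all UMIs in place of thinned ones, over the 1484 3XTg-AD and 1336 wildtype NK barcodes with fewer than 10 Gzmb UMIs per 1400, 4 members were past 1.5-fold lower, Socs2 at 0.432 (0.280 to 0.654), Pim2 at 0.501 (0.405 to 0.617), Socs1 at 0.612 (0.526 to 0.710) and Myc at 0.637 (0.503 to 0.805). Gadd45g was then at 0.718 (0.607 to 0.849) and Cish at 0.939 (0.710 to 1.24). When both libraries were instead weighted to 1 common mix of Gzmb levels, with the highest split at 10, 6 members stayed past 1.5-fold lower, with log2 ratios of -1.39 for Pim2, -0.81 for Gadd45g and -0.73 for Socs1, and Cish at -0.32 did not. Rank correlations with Gzmb over barcodes, given as descriptions of 1431 3XTg-AD and 1359 wildtype barcodes that share a library and a depth, were 0.051 and 0.276 for Socs1. They were 0.028 and 0.228 for Gadd45g, -0.033 and 0.181 for Myc, and -0.032 and -0.066 for Socs2. All are weak, and the 3XTg-AD ones are near 0.

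The Gzmb-rich wildtype barcodes were also set against the other wildtype NK barcodes within that one library. All 5 members with enough UMIs were past 1.5-fold higher there, where 9.07% of 2823 measured genes were higher. The folds were 8.27 for Gadd45g, 4.81 for Socs1, 4.57 for Myc, 3.09 for Pim2 and 1.80 for Pim1. Of the members with fewer UMIs, Cish, Osm and Socs3 averaged more in the Gzmb-rich barcodes. Socs2 went the other way, at 0.014 UMIs per barcode against 0.028 in the others, on 2 and 34 UMIs. The members and the limit of 10 were chosen with these data known, so nothing is read from the count of members. Of the list of genes of cytokine-primed NK cells, 10 of 18 measured were higher and 1 was lower, a count that includes Gzmb, by which the barcodes were split. Of the MYC-linked genes 11 of 18 were higher and 1 was lower, and of the interferon genes 11 of 16 were higher and 0 lower. Among them Bcl2, a survival gene, was 3.08 times higher and Nop58 and Ncl, which serve ribosome assembly, 2.91 and 1.70 times. Il7r, the IL-7 receptor chain, had 1 UMI in the Gzmb-rich barcodes and 112 in the others, a ratio of 0.076 (0.0019 to 0.432). Interferon-rich barcodes overlapped with them in part. Of 44 wildtype barcodes with at least 10 UMIs of the interferon list, 20 were Gzmb-rich, and Socs1 was detected in 54.5% of the 44 against 14.9% of the other 1315. The 3XTg-AD library had 3 interferon-rich barcodes, of which 0 were Gzmb-rich. When NK barcodes with at least 10 interferon UMIs before thinning were left out, the log2 ratio of Socs1 was -1.03, against -1.14 with them. That set was counted at full depth and is not limited to the 44 and 3 barcodes above.

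Most pairs of members were found together in single barcodes more often than the product of their shares gives, a description that carries no test. Over all 36 pairs, 25 in the 3XTg-AD and 31 in the wildtype library were above it. Pairs of other genes are not given here, so the counts are not read as a trait of the members. Over pairs with a product of at least 3 barcodes, 13 of 14 3XTg-AD and 24 of 26 wildtype pairs were above it, with median ratios of 1.29 and 1.55. The exceptions were Pim1 and Osm in the 3XTg-AD library, 10 barcodes against 12.2. In the wildtype library they were Socs1 with Socs2, 3 against 4.69, and Socs1 with Socs3, 6 against 6.15. Socs1 and Cish were detected together in 8 3XTg-AD barcodes where the product gave 4.76, and in 28 wildtype barcodes where it gave 10.5. Socs1 and Gadd45g shared 13 against 9.02, and 46 against 22.5. Pim2 and Gadd45g gave the highest ratio in the 3XTg-AD library, 10 barcodes against 3.42, and had 27 against 12.5 in the wildtype library. In the wildtype library Cish and Myc ranked highest, 13 against 4.40. Limited to barcodes with fewer than 10 Gzmb UMIs, 12 of 14 3XTg-AD and 15 of 20 wildtype pairs were above the product. The medians over those 14 and 20 pairs were 1.24 and 1.26. The limit on the product was applied within each library, so the medians cover different pairs and are not compared between libraries. At least 3 of the 9 genes were detected in 36 3XTg-AD barcodes (2.52%) and 103 wildtype barcodes (7.58%), where independent shares gave 19.5 and 58.0. None was detected in 50.5% of 3XTg-AD and 42.7% of wildtype barcodes.

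**Figure D5:**
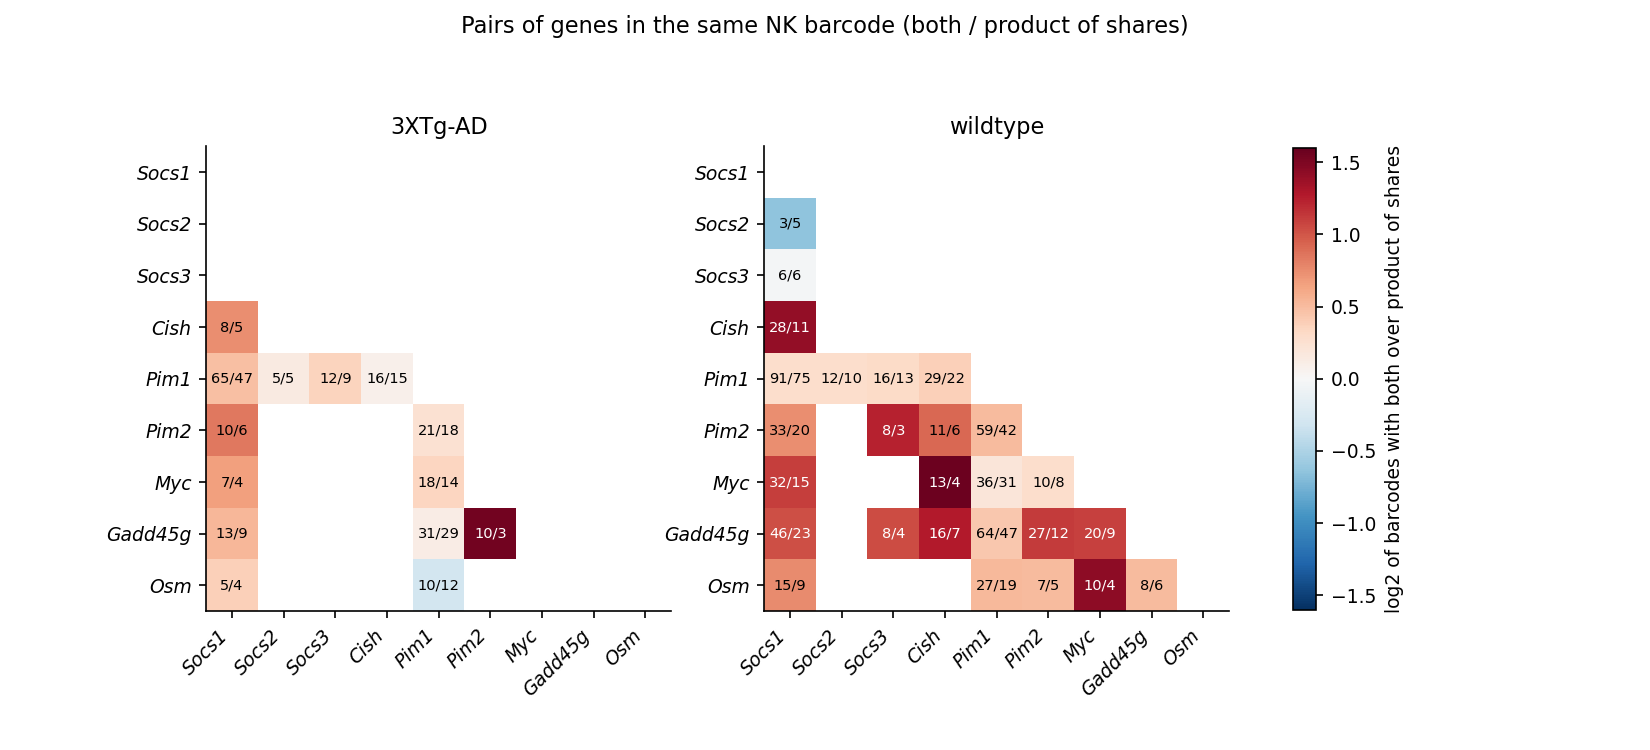
Thinned NK barcodes in which both genes of a pair were detected, set over the number the product of their shares gives (numbers in the cells, rounded), with the log2 of that ratio as colour, in the 3XTg-AD and wildtype libraries. Pairs with a product under 3 are left blank, and most drawn pairs lie above 1, up to 2.92 in the 3XTg-AD and 2.95 in the wildtype library.

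The genes whose counts ran most alike were sought for the members detected in at least 5% of NK barcodes of both libraries, by the smaller of the libraries' Pearson correlations of log counts over 3501 genes. Socs1 came closest to Gimap3, at 0.103 in the 3XTg-AD and 0.087 in the wildtype library, and to Pim1 at 0.084 and 0.090. Pim1 came closest to Ccl4, a chemokine gene of activated NK cells, at 0.112 and 0.109. Gadd45g came closest to Hopx, at 0.064 and 0.096. All these values are weak, as sparse counts allow.

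For the rest of the pathway in NK barcodes, counts are read beside the 3.55% of all measured genes that were higher and the 2.37% that were lower in the 3XTg-AD library. Of 4 measured ligand genes none passed 1.5-fold. Of 16 receptor genes, Il21r was higher, at 299 against 176 UMIs and a ratio of 1.69, and Il7r was lower, at 110 against 243 UMIs and 0.450. Of 12 genes of the list of kinases and STATs, 2 were lower and 0 higher, among them Irf9, which carries interferon signals and is itself induced by them, at 0.616. Of 21 other inhibitors of the signal, the phosphatase genes Dusp1 at 2.46 and Dusp6 at 1.71 were higher and none was lower. Of 24 genes of cytokine-primed NK cells, Gzmb at 0.524 and Cd69 at 0.642 were lower and Gadd45b, a relative of Gadd45g, was higher at 1.72. Of 27 MYC-linked genes, Mxd1 was lower at 0.536 and Mxd4 higher at 1.52, both MYC antagonists that bind the same partner, and the median log2 ratio of that list was -0.03. In the same barcodes 13 of 26 interferon genes were lower and 14 of 32 stress and chaperone genes higher in the 3XTg-AD library, 0 and 1 the other way. Beyond leaving out the barcodes richest in either list, their part in the ratios of the members was not tested.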

How the data were processed

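The authors deposited UMI counts per gene and barcode for 1 library of each group, with no normalization. Cell Ranger 3.1.0, STAR and mm10 are named in the submitters' processing notes, and the matrices carry version 3.0.2, per the file headers. No source used here states the annotation release. Groups follow the genotype labels. Barcodes with fewer than 300 genes, over 10% mitochondrial UMIs or a Scrublet call (run in scanpy 1.11.5, each library alone) were left out: the first removed 10 3XTg-AD and 45 wildtype barcodes, the second 0 and 2, and the third 22 and 13. Barcodes of T, B, microglia, erythroid or neutrophil gates were set aside. Counts were summed per library and class, scaled to CPM, and compared with exact conditional binomial intervals (scipy 1.17.1, Python 3.11.15). A count of 0 was given a floor of 3 counts. Gene coordinates come from GENCODE on GRCm38, and sequences from RefSeq.

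The members and gene lists were chosen with earlier results of these data known. Named genes are all members, Gzmb, Cd27 and Klrg1, up to 4 genes of each list with the largest absolute log2 ratio, and the 3 genes most correlated with each frequent member; not all are printed, 1 gene of the pathway lists is not reported here, and Bcl2, Nop58, Ncl, Ncr1 and the Il7r value within the wildtype library were named after their values were seen. Alternatives changed the thinning depth, gates, filters, minimum and normalization, and the Gzmb-rich barcodes were left out as a choice made after seeing the data. Ratios were tested on simulated counts. Thinned shares of the wildtype NK barcodes were compared with those expected over all random draws, and pair counts had no such check.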

Additional observations from a re-analysis of the deposited data

Results flagged for a closer look

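Microglia barcodes, set aside from the NK and ILC1-like classes, carried UMIs of several members in the 3XTg-AD library at a higher share than in the wildtype library. Socs3 had a UMI in 9.68% of the 31 3XTg-AD barcodes and in 0% of the 8 wildtype barcodes. Myc and Gadd45g each had one in 19.4% of 3XTg-AD and 12.5% of wildtype barcodes, and Osm in 12.9% and 12.5%. With 8 wildtype barcodes, 0 allows a share of up to 37.5%, so no difference was detectable, and Ncr1 transcripts in 51.6% of the same 3XTg-AD barcodes and in 4 of the wildtype ones show that NK transcripts were present in them.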

How the results depend on the processing

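The count of 7 members past 1.5-fold in NK barcodes stayed within 1.5 times under 19 of 21 alternatives. It came to 3 over thinned barcodes with fewer than 10 Gzmb UMIs, where the log2 ratio of Cish turned to 0.10, and to 4 over the same kind of barcodes without thinning. In ILC1-like barcodes the count of 0 became 2, with 7 members measured, at a minimum of 20 UMIs, and 1 at an ILC1-like limit of 2. Pairs above the product of shares in both libraries numbered 13 at 1400 UMIs and 7 at 1000 UMIs. The share difference of Socs3, -0.77 percentage points, turned to 0.13 at 2000 UMIs. The cause was not tested. Over all alternatives 183 of 186 log2 ratios of members in NK barcodes were negative. Settings that changed only the minimum of UMIs repeat the main ratios, and the others reuse many of the same barcodes. The tally is therefore no measure of independent support. No paired analysis was possible because each group has 1 library. Depth limits Socs2, Socs3 and Osm most, and in ILC1-like barcodes every member but Socs1 and Cish.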
